A study of Mustela putorius furo with 8 samples.

Results

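Cluster 12 of the wild-type (WT) ferret pancreatic ductal epithelium was a set of 734 cells that the authors' cell table gave the class name centroacinar. Its members were taken from that table by cluster number alone. They made up 734 of 21600 WT cells, and 32945 cells of both genotypes were retained in all. The 21600 WT cells formed 41 clusters, of which 8 carried the centroacinar name, and the 7 others held 3195 cells.

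The cells came from pancreata of newborn WT ferrets, were passaged repeatedly as ductal cells and were then polarized at an air-liquid interface (ALI) on coated transwell inserts in PneumaCult-ALI medium. Droplet single-cell RNA libraries were made on day 2, 5, 7 and 9 at the interface, with 1 library for each day. The same was done with cells of CFTR KO/KO ferrets (CF), which enter 1 comparison here. The study pooled cells of several donors in each library and no cell was tied to a donor, so day, library and donor mixture cannot be told apart and no value has a replicate error.

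Centroacinar cells sit where the smallest pancreatic ducts meet the acini. They carry duct keratins, secrete bicarbonate-rich fluid and are known for progenitor traits such as Notch activity and aldehyde dehydrogenase expression. A class name given to a cultured duct cell is a statement of likeness, and the study gave the names by correlating these same cells with published pancreas data sets and reading known markers. MDM2, one of the genes described at length here, encodes a ubiquitin ligase that restrains the response of cells to DNA damage and is itself switched on in that response.

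The cluster was small at day 2, when it held 19 cells, and it had 254, 330 and 131 cells at day 5, 7 and 9. These were 0.305% of the WT cells at day 2 (exact Clopper-Pearson 95% interval 0.184 to 0.476), 4.77% at day 5 (4.21 to 5.38), 7.12% at day 7 (6.40 to 7.90) and 2.42% at day 9 (2.03 to 2.86). The share was highest at day 7, and none of the 4 intervals overlapped another. Of the cells named centroacinar, the cluster held 19 of 29 at day 2 (65.5%), 33.5% at day 5, 42.3% at day 7 and 5.55% at day 9. The fall within that class between day 7 and day 9 came with a rise of the class from 781 to 2361 cells. All intervals here cover counting error only.

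**Figure D1:**
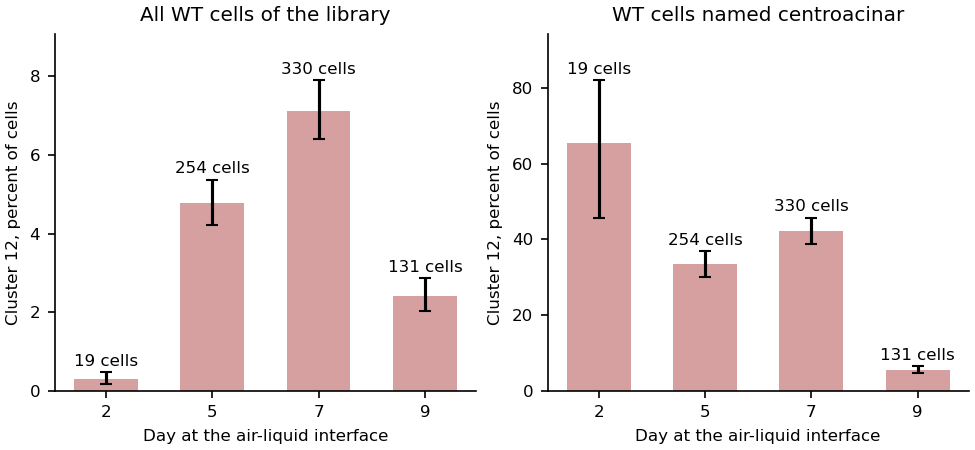
Bars show cluster 12 as a percent of all WT cells (left) and of the WT cells named centroacinar (right) on each day at the air-liquid interface, 1 library a day, with exact Clopper-Pearson 95% intervals as error bars and the number of cluster 12 cells above. The share of all WT cells was highest at day 7 (7.12%), and the share of the centroacinar name fell to 5.55% at day 9.

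The cells were of ordinary depth. Their median was 15712 UMIs (unique molecular identifiers, the counted RNA molecules) against 15954 in the other WT cells, with a median of 3797.5 genes against 3799 and of 8.47% mitochondrial UMIs against 9.09%. UMIs of the cluster summed to 269912, 4334312, 6215604 and 2168495 over the 4 days. Across the WT libraries 59 of 21541 barcodes occurred in more than 1 library, and 4 cells of cluster 12 carried such a barcode. Days with at least 50 cells of the cluster, which were day 5, 7 and 9, were used for gene levels. A level is given in CPM, the UMIs of a gene per 1e+06 UMIs summed over the cells. A difference is log2(CPM + 1) of the cluster minus that of the other cells of the same library, averaged over the 3 days, and its SD is over those 3 days. Changes of genes with levels around 1 CPM come out too small on it.

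The class name was not borne out by the study's own centroacinar markers. Of 6 such markers 5 were in the annotation, none was at least 2-fold higher in cluster 12 than in the other WT cells on the mean of the 3 days, and their median difference was -0.28. PROM1, a membrane glycoprotein of progenitor cells, stood at 27.5, 46.8 and 48.0 CPM at day 5, 7 and 9, against 135, 231 and 351 CPM in the other WT cells. S100A4, a calcium-binding protein, was at 66.0, 23.7 and 73.3 CPM against 167, 135 and 292 CPM. Both were thus lower on each of the 3 days, by -2.46 (SD 0.33) and -1.92 (SD 0.57). The other members differed little: KRT7, a duct keratin, by 0.15, WSB1 by -0.28 and S100A6 by 0.40. The study's ductal markers behaved much the same way, with 1 of 6 lower (ADIRF, -2.08), none higher and a median of -0.37. ADIRF was not lower against the clusters with at least 10 CPM of SOX2, which are described further on (-0.27, not called).

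No general marker of the pancreatic progenitor state was called higher in the cluster either. Of 16 listed genes 14 were measured and 8 reached the filter, of which 2 were called lower, with a median of -0.17. HES1, a Notch target, was at 763, 874 and 1054 CPM in cluster 12 and at 729, 912 and 1079 CPM in the other WT cells. Against the clusters with at least 10 CPM of SOX2, HES1 differed by 0.85 and was not called. SOX9, a duct and progenitor transcription factor, was low in both (8.85 to 14.3 against 6.46 to 10.8 CPM). No UMI of PDX1, PTF1A or NKX6-1 was counted in the cluster on those 3 days, which allows at most 1.70 CPM of each (exact Poisson bound at day 9, the shallowest). CFTR, the chloride and bicarbonate channel of the duct, stood at 45.7, 24.3 and 41 CPM against 15.6, 15.2 and 29.2 CPM, a difference of 0.87 (SD 0.54) that was above 0 on each day. With the class name unsupported by these markers, the cells are called cluster 12 throughout.

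Against the other WT cells, 7916 genes reached 10 CPM on either side. Of these 95 (1.2%) were called higher, meaning at least 2-fold on the mean with the same sign on each of the 3 days, and 287 (3.63%) were called lower. The cells were clustered on these same genes, so the differences describe the cluster and were not tested. The median difference over all 7916 genes was -0.04.

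The largest difference upwards was that of CBLIF, the gastric intrinsic factor that binds vitamin B12. It was at 70.6 CPM at day 5 (exact Poisson 95% interval 62.9 to 79.0), 9.65 at day 7 (7.37 to 12.4) and 18.4 at day 9 (13.2 to 25.1), against 2.36, 1.13 and 0.980 CPM in the other WT cells. Every day of the cluster lay above every day of the rest, and the mean difference was 3.34 (SD 1.05). Among the 41 WT clusters cluster 12 had the highest pooled level, 31.3 CPM, and cluster 20 came next with 12.5 CPM. After each cell was thinned to 3000 UMIs, 7.56% of cluster 12 cells (5.73 to 9.75) and 0.440% of the other WT cells (0.339 to 0.563) had a CBLIF UMI. Without thinning the shares were 22.2% and 1.71%, at median depths of 15788 and 15797 UMIs.

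Some other secreted or digestive products, picked from the 20 called genes with the largest differences, were high beside it. The gastric surface, trefoil and mucin lists, given further on, were low as groups. PRAP1, a small secreted proline-rich protein of absorptive epithelia, was at 446, 119 and 808 CPM against 92.0, 40.5 and 133 CPM, and 44.8% of thinned cells had a UMI against 17.6%. CTSE, an aspartic proteinase of the gastric surface, was at 34.8, 25.9 and 31.8 CPM against 8.54, 8.42 and 12.1 CPM. SPON2, a secreted matrix protein, was at 29.8, 15 and 68.7 CPM against 9.09, 5.73 and 9.72 CPM. These 3 genes differed by 2.13 (SD 0.55), 1.58 (SD 0.30) and 1.85 (SD 0.76). The uncharacterised gene LOC123390887 was far more abundant, at 1351, 562 and 3080 CPM against 294, 146 and 423 CPM. DKK1, a secreted inhibitor of WNT signalling, was at 53.5, 43.8 and 42.0 CPM against 12.5, 17.6 and 19.5 CPM. Of these genes PRAP1 alone had a day in the cluster (119 CPM at day 7) below a day in the rest (133 CPM at day 9), and the others did not overlap.

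Among membrane, cytoskeletal and metabolic genes, AQP4, a water channel, was at 105, 70.6 and 73.8 CPM against 9.52, 14.5 and 35.2 CPM. The difference was 3.33 at day 5 and 1.05 at day 9, and the level in the other cells was higher on each later day. KRT4, a keratin of stratified linings, was at 151, 364 and 56.7 CPM against 22.4, 41.7 and 52.0 CPM, so at day 9 it barely differed (0.12). At that day the other cells named centroacinar had more (92.0 CPM). Pooled over days, cluster 12 stood at 235 CPM and the next cluster, 24, at 224 CPM. UPP1, which breaks down uridine, was at 251, 76.3 and 191 CPM against 53.9, 31.2 and 59.8 CPM. PRICKLE1, a planar polarity protein, differed by 1.46 and STK38L, a protein kinase, by 1.45.

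Of the 20 called genes with the largest differences, 19 were protein-coding and 6 carried only a LOC number. For 18 of the 20 the lowest of the 3 days in the cluster exceeded the highest of the 3 days in the rest, and the other two were PRAP1 and LOC101688986. The same held for 12.8% of the 7916 genes, and choosing genes by size and common sign favours it, so it is a description of these 20. By levels pooled over days, cluster 12 ranked among the 7 highest of 41 clusters for all 20, and had the highest level for 3 of them (CBLIF, LOC101675930 and KRT4). The clusters differed in their make-up by day, cluster 4 having 1025 of its 1030 cells at day 2 and cluster 3 having 965 of 1044 at day 9, so these ranks also carry differences between days. For 16 of the 20 the highest other cluster lay on the same inferred lineage, described below, most often cluster 20 (7 genes) or cluster 23 (6 genes). The genes were picked for being high in cluster 12, itself on that lineage. The share over all genes was not computed, so this count is a description only. Cells of cluster 20 were shallow, with a median of 3397.5 UMIs.

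**Figure D2:**
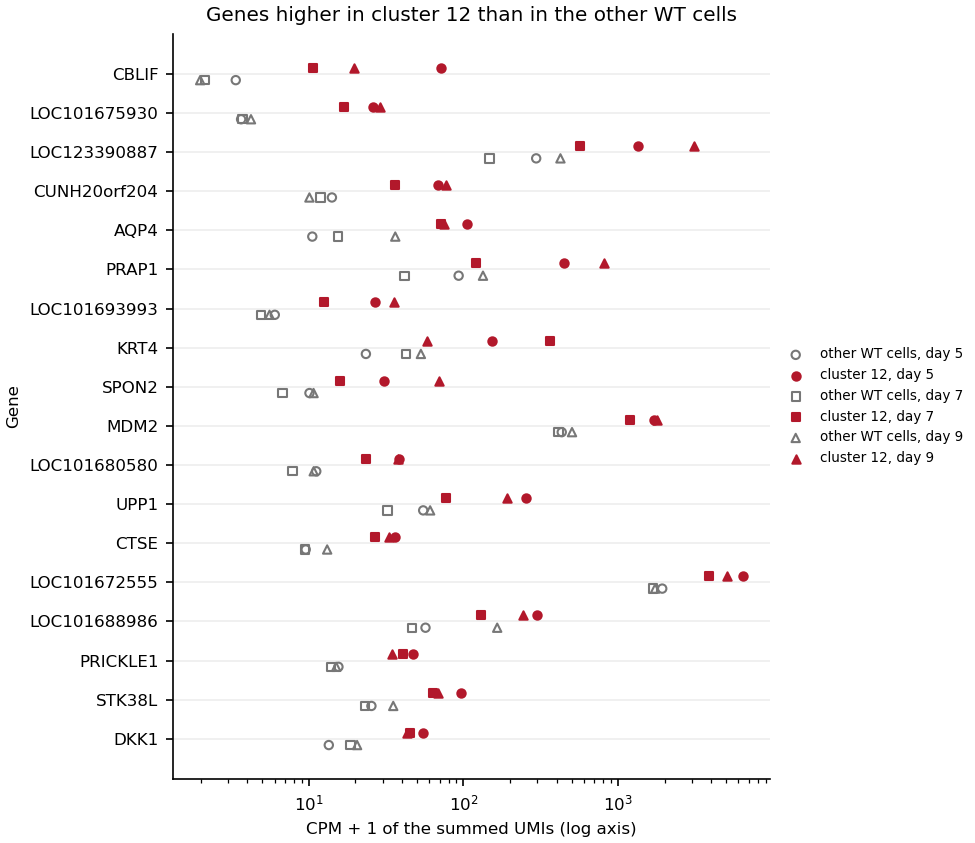
Each row is 1 of 18 of the 20 genes with the largest differences upwards. Filled red symbols give the cluster and open grey symbols the other WT cells of the same library at day 5 (circle), 7 (square) and 9 (triangle), as CPM + 1 on a log axis. Red lies to the right of all grey symbols of the gene except for PRAP1 and LOC101688986, and CBLIF, LOC101675930 and MDM2 show wide gaps.

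Leaving aside genes with only a LOC number, MDM2 was the most abundant gene of that set. It stood at 1717 CPM at day 5 (1678 to 1756), 1198 at day 7 (1171 to 1225) and 1771 at day 9 (1716 to 1828), against 431, 412 and 503 CPM in the other WT cells. The levels in the rest were nearly flat, and each day of the cluster was above all of them. The mean difference was 1.78 (SD 0.23), a fold of 3.44. After thinning, 94.7% of cluster 12 cells had an MDM2 UMI, with a median of 4 UMIs a cell, against 57.1% and a median of 1 UMI in the other WT cells. Only cluster 23 had a higher pooled level (1642 against 1462 CPM in cluster 12).

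The other members of the DNA damage response list gave a graded picture. The name of the list is a label, and DNA damage itself was not measured. Of 15 listed genes 14 were measured and 12 reached the filter, of which 2 were called higher (MDM2 and BBC3), none lower, with a median of 0.50 against -0.04 for all genes. BBC3, a trigger of apoptosis, was at 46.8, 31.2 and 54.9 CPM against 15.8, 13.6 and 19.9 CPM, a difference of 1.36 (SD 0.19). CDKN1A, the p21 inhibitor of the cell cycle, was at 1489, 1079 and 1698 CPM against 789, 608 and 887 CPM, which at 0.89 (SD 0.06) stayed short of 2-fold. BAX differed by 0.74, ZMAT3 by 0.64, SESN1 by 0.52 and PHLDA3 by 0.48. Members near or below 0 were FAS (-0.07), RRM2B (-0.09) and SFN (-0.49), and GDF15 was under 1 CPM throughout. Of the 14 measured members 11 had a difference above 0, and of the 12 past the filter 9 had. The median of all compared genes was below 0 (-0.04), so fewer of those genes were above 0 than below it. Outside the list, and picked after their values were seen, PMAIP1, an apoptosis gene, was called (1.1), while PLK2 (0.54), CCNG1 (0.37), TRIAP1 (0.12) and XPC (0.08) were not. Percent mitochondrial UMIs was no higher in the cluster than in the rest on the 3 days (6.40, 10.0 and 8.16% against 6.66, 10.8 and 10.3%). In the 19 cells of day 2 it was 11.2% against 9.16%. The authors had removed cells above 20%, and cell stress was not tested.

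Transcription factors moved in both directions. SOX2, a factor of foregut progenitors, was at 161, 131 and 170 CPM against 64.4, 64.9 and 86.7 CPM (1.09, SD 0.19), and 36.8% of thinned cells had a UMI against 19.3%. ZNF750, a factor of squamous maturation, was at 133, 148 and 127 CPM against 45, 61.0 and 70.0 CPM (1.22). PAX6, an eye and endocrine factor, was by contrast at 0.461, 4.34 and 0.922 CPM against 71.2, 46.8 and 29.2 CPM (-4.25, SD 1.26). TP63, the basal cell factor, differed by -1.89, FOXA2 by -1.36 and SPDEF, a factor of goblet cells, by -3.22. In the list of 26 epithelial transcription factors 19 reached the filter, with 2 higher (SOX2 and ZNF750), 5 lower and a median of -0.18. KLF5, ELF3, EHF and FOXA1 were well measured and differed by -0.29, 0.16, -0.17 and -0.01.

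SOX2 divided the WT clusters: 29, cluster 12 included, had at least 10 CPM, and 12 had less. The other cells comprised 15387 of the SOX2-high and 5479 of the SOX2-low clusters. Set against the SOX2-high clusters alone, a comparison added after the data had been seen, 35 of 7817 genes (0.448%) were higher and 247 (3.16%) lower. Of the 20 named genes 16 were still called, among them CBLIF (2.90), PRAP1 (1.44) and MDM2 (1.24). The call was lost for KRT4 (1.34, not above 0 on every day), PRICKLE1 (0.86), LOC101672555 (0.94) and LOC101688986 (0.82). BBC3 (0.92) and ZNF750 (0.82) lost it too, which left MDM2 as the called member of the DNA damage response list, and PMAIP1, outside it, was called (1.03). Among the lower factors TP63 (-0.62) and FOXA2 (0.04) were no longer called, and SPDEF (-3.65) was. SOX2 itself then differed by 0.39.

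For the 15 genes with the largest differences downwards, other than LOC101676065 and LOC101673788, the cluster with the highest pooled level was a SOX2-low one. HSPB1, a small heat-shock protein, was at 13.2, 29.6 and 12.9 CPM against 716, 553 and 551 CPM, a difference of -5.05 (SD 0.78). NRN1, a neurite-promoting membrane protein, was at 0.923, 3.06 and 1.38 CPM against 124, 94.0 and 43.2 CPM. GUCA2A, the gut peptide guanylin, was at 9.46, 17.2 and 4.15 CPM against 437, 324 and 186 CPM. After thinning 2.94% of cluster 12 cells had an HSPB1 UMI against 32.6%, and 2.66% had a GUCA2A UMI against 27.7%. Against the SOX2-high clusters the differences shrank to -2.35 for HSPB1, -1.96 for GUCA2A and -1.23 for PAX6, the last no longer called, and NRN1 (-1.22) was not called either. Of the 15 genes named as lowest, 5 were called in that comparison. The other genes, PAX6 and NRN1 among them, had under 10 CPM on both sides there. They were left out by the filter and could not be called at any size of difference.

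Secreted peptides were among the remaining genes. TFF2, a trefoil peptide that protects mucosa, was at 0.231, 3.54 and 10.6 CPM against 17.1, 80.4 and 332 CPM. ECRG4, a secreted growth inhibitor, was at 0.692, 1.45 and 0.922 CPM against 30.7, 53 and 89.4 CPM. BMP3, a secreted member of the BMP family, had no UMI at day 5, which allows up to 0.851 CPM (exact Poisson bound), and was at 0.804 and 1.84 CPM on the later days, against 23.6, 24.7 and 32.9 CPM. TSPAN15, a tetraspanin, RHOV, a small GTPase, and CKB, a creatine kinase, were under 5 CPM in the cluster on each day, and differed by -4.16, -4.09 and -4.08. For all 15 genes the highest day of the cluster was below the lowest day of the rest, and 11 of them were under 5 CPM on every day. Of the 7916 genes 17.4% had no overlap in that direction, and the choice of genes favours it here too.

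**Figure D3:**
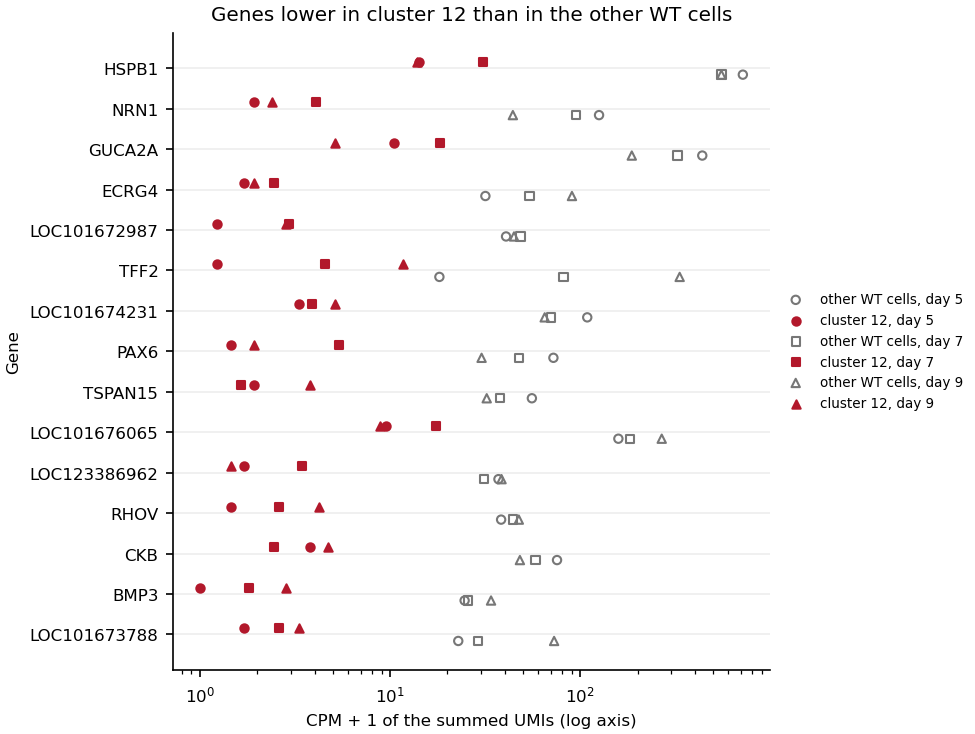
Each row is 1 of the 15 genes named as lower in cluster 12, with cluster 12 in filled red and the other WT cells in open grey symbols at day 5 (circle), 7 (square) and 9 (triangle), as CPM + 1 on a log axis. No red symbol reaches the grey symbols of its gene, and the highest red value is that of HSPB1 at day 7 (29.6 CPM).

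Products of a mucous surface were low by the median of each list. All 3 trefoil factors were called lower (TFF1 -2.98, TFF2 -4.30, TFF3 -3.39). In the mucin list 8 of 13 measured genes reached the filter and 6 were lower, with a median of -2.48. MUC1, a membrane mucin, was at 339, 265 and 376 CPM against 665, 761 and 1228 CPM (-1.40). MUC13 differed by -2.84, MUC4 by -2.31, and the gel-forming mucins MUC5AC and MUC5B by -2.65 and -2.87. MUC16 stood apart from these with 260, 121 and 244 CPM against 143, 146 and 337 CPM (0.05). Airway secretory genes had 4 of 6 lower and none higher (median -2.61), led by LYPD2 (-3.31) and PIGR (-2.81). Of the antimicrobial genes 5 of 8 were lower (median -1.45). In summed amount neither list was clearly low. Airway secretory genes came to 1591 to 12612 CPM over the 3 days, against 1835 to 12703 CPM in the rest. Antimicrobial genes came to 1627 to 12559 CPM against 1650 to 12115 CPM. WFDC2, a secreted proteinase inhibitor on the airway list, was at 6031 CPM on the mean and was not called against the SOX2-high clusters (-0.20). Gastric surface genes had 1 of 6 higher (CTSE) and 3 lower (TFF1, TFF2 and CLDN18, the last by -2.91), with a median of -1.51, which was -0.39 against the SOX2-high clusters. The dual oxidase DUOX2 and its maturation factor DUOXA2 differed by -2.06 and -2.53, and their paralogs DUOX1 and DUOXA1 by 0.06 and -0.39, neither called. Against the SOX2-high clusters the median was -2.99 for mucins, -2.40 for airway secretory genes and -1.23 for trefoil factors. It was -1.11 for dual oxidases and -0.76 for antimicrobial genes. TFF1 (-1.19) had under 10 CPM on both sides there, so the filter left it out and it could not be called. The study's centroacinar progenitor markers, which include several mucins and were read on these same cells when the classes were named, had 6 of 11 lower and none higher.

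Few lists leaned the other way. Of the 50 lists with at least 3 members past the filter, 41 had no member called higher. Only 1.2% of all compared genes were called higher, so a short list would often hold none. Simple keratins had a median of 0.43 with none called, and cluster 12 had the highest pooled KRT18 level of the 41 clusters (KRT18 1211, 626 and 1193 CPM against 538, 475 and 554 CPM). The TGF-beta list had 2 of 13 higher (TGFB2 1.05 and TGFBI 1.12), 1 lower (INHBA -1.12) and a median of 0.31. Basal cell markers had 3 of 9 lower and none higher, and G2/M genes had 4 of 11 lower, TOP2A, MKI67, CDK1 and CENPF, and none higher. Against the SOX2-high clusters none of these 4 genes was called (-0.29, -0.28, -0.70 and -0.83), nor were TGFB2 (0.37) and TGFBI (0.43). The 16 measured genes of cholesterol synthesis and the 13 mitochondrially encoded genes held no call at all. Over all compared genes 1.2% were called higher and 3.63% lower, so few calls would fall in lists of that size.

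**Figure D4:**
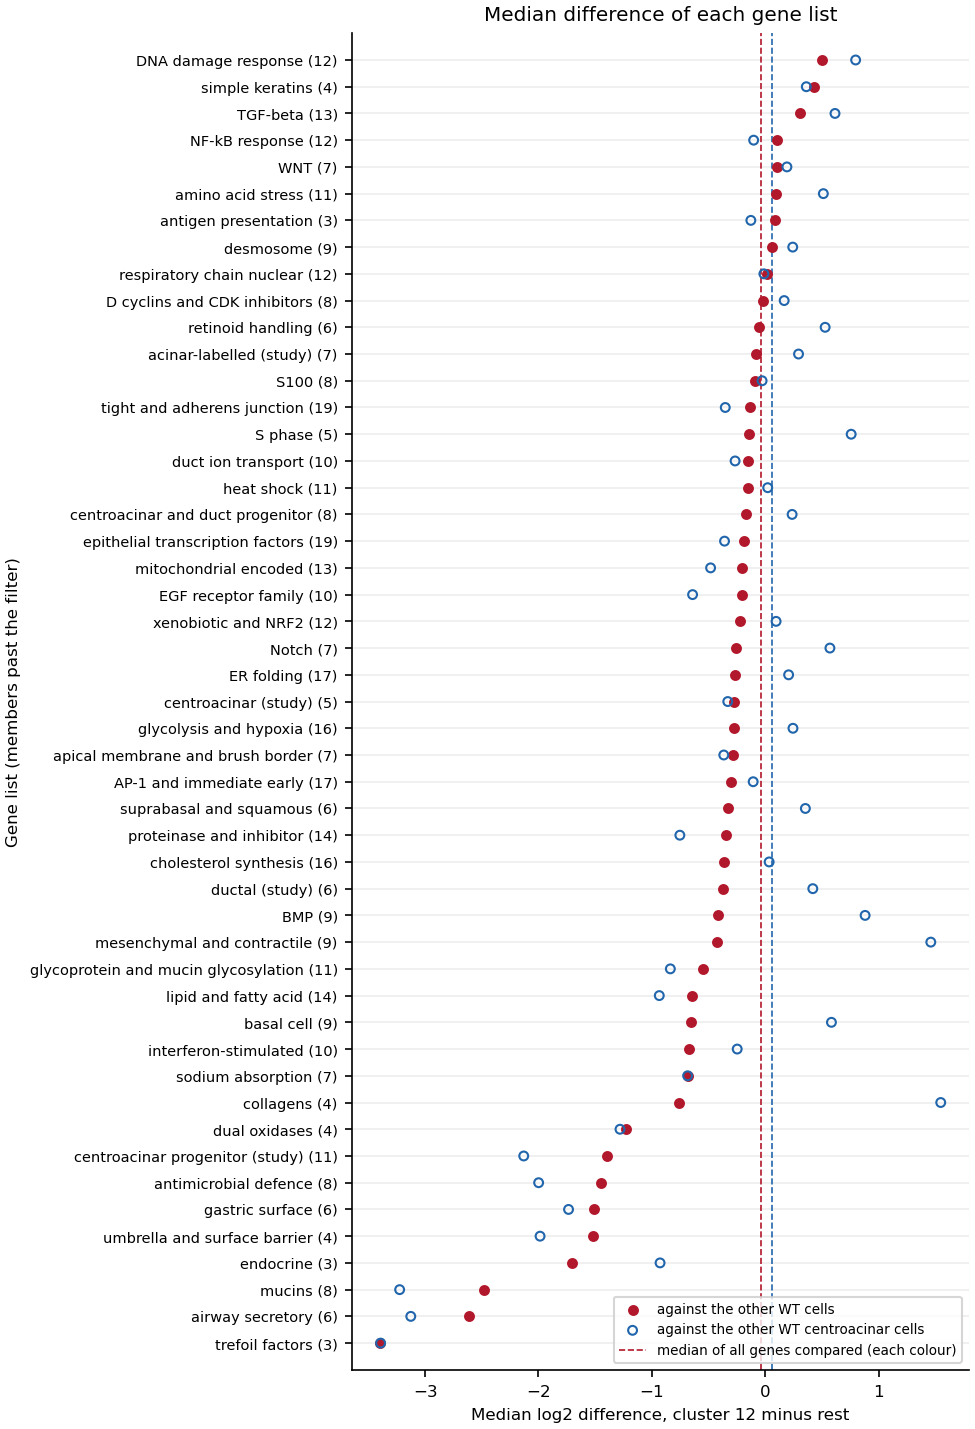
Points give the median log2 difference of each gene list between cluster 12 and the other WT cells (filled red) or the other WT cells named centroacinar (open blue), with the number of members past the filter against other WT cells in brackets and the median of all compared genes as dashed lines (-0.04 and 0.06). The DNA damage response list is the highest in red (0.50) and the trefoil list the lowest (-3.39), and the contractile and collagen lists lie on opposite sides of 0 in the 2 comparisons.

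Markers of unrelated cells were close to absent. No member of the leukocyte, endothelial, fibroblast, multiciliated, tuft or acinar enzyme lists reached 10 CPM. Summed over the list, leukocyte markers came to 4.18 to 9.22 CPM over the 3 days (7.11 to 11.3 in the rest), fibroblast markers to 2.31 to 3.92 CPM (5.14 to 6.11) and acinar enzymes to at most 0.322 CPM (0.341 to 0.581). All 7 acinar enzyme genes of that list in the annotation were under 1 CPM. CLPS, pancreatic colipase, is not on the list and was picked after its values were seen. It was at 142, 94.8 and 268 CPM against 60.6, 52.0 and 106 CPM (1.13), and was not called against the SOX2-high clusters (0.77). Of the 15 genes of the endocrine list 3 reached the filter, with 1 called higher and 2 lower. The lower genes were PAX6 and ISL1 (-4.25 and -1.70). Against the SOX2-high clusters (-1.23 and -0.06) both had under 10 CPM on either side and could not be called. The hormones INS, GCG and PPY had no UMI.

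Among the WT cells named centroacinar, cluster 12 was set against the clusters of its own class. Of 7850 genes 336 (4.28%) were called higher and 404 (5.15%) lower than in the 3195 other cells of that name. The median over all genes was 0.06. This comparison shares the cluster 12 cells, and the cells it is set against, with the comparison above. MDM2 was at 600, 294 and 479 CPM in the other centroacinar cells, so that cluster 12 was higher by 1.81, and CBLIF was at 4.12, 0.724 and 0.807 CPM (3.29). SPP1, the matrix phosphoprotein osteopontin, differed by 3.08 in this comparison and by 1.32 against all other WT cells. PAPPA, a proteinase that releases insulin-like growth factors, gave 2.98 and 1.14, and IGFBP3, a binding protein of those factors, gave 2.89 and 0.81. CLEC3A gave 3.23 and 1.25.

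Contractile and TGF-beta genes were among those higher than in the rest of the class. Of the contractile list 5 of 9 were higher and none lower: CALD1 (2.60), MYL9 (1.89), TAGLN (1.80), SNAI2 (1.69) and FN1 (1.46). Against all other WT cells the same list had a median of -0.43 with 1 lower (SPARC). Against the SOX2-high clusters TAGLN (-1.45), FN1 (-1.28) and SPARC (-2.16) were called lower. CALD1 (-0.33), MYL9 (-0.31) and SNAI2 (-0.62) were not called there. In the TGF-beta list 5 of 12 were higher and none lower, among them TGFBI (2.70) and TGFB1 (2.15). The DNA damage response list had 5 of 12 higher and none lower (median 0.80), CDKN1A (1.05), SESN1 (1.1) and PHLDA3 (1.28) being called here beside MDM2 and BBC3. KRT5 (1.61) and ITGB4 (1.21) were the basal genes called higher. Mucins had 7 of 8 lower (median -3.22). ECRG4 (-5.70), TFF2 (-4.97), MAL (-4.74) and GUCA2A (-4.45) were among the lowest genes.

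The nearest clusters by Pearson correlation of pooled log2(CPM + 1) over 10667 genes were named otherwise. They were cluster 14 (ductal, r = 0.963), cluster 24 (centroacinar_progenitor, r = 0.961) and cluster 5 (ductal, r = 0.958); the nearest cluster of its own class, cluster 7, had r = 0.951. These values are across genes, which are not independent, and are given as a description.

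Named genes differed from one neighbour to another. Against cluster 14, compared at day 7 alone, 231 of 7833 genes (2.95%) were higher and 202 (2.58%) lower. KRT4 was at 364 CPM against 8.77, AQP4 at 70.6 against 1.18 and WFDC2, a secreted proteinase inhibitor, at 1548 against 115 CPM. LTB, a cytokine, was lower at 69.3 against 558 CPM. Against cluster 24, at day 5 and 7, 384 of 7679 genes (5%) were higher and 199 (2.59%) lower. CALD1, an actin-binding protein, was at 447 against 14 CPM and TAGLN at 81.7 against 2.62 CPM on the mean of both days. AQP4, KRT4 and SOX2 differed from cluster 24 by -0.66, 0.50 and 0.30. Against cluster 5, 298 of 7933 genes (3.76%) were higher and 384 (4.84%) lower, with AQP4 (83.1 against 0.601 CPM) and WFDC2 (6031 against 254 CPM) leading and SPARC and TAGLN among the lower genes (-3.64 and -3.09). CDKN1A and BBC3 differed from cluster 5 by -0.16 and 0.06.

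The deposited pseudotime scores placed the cluster between those neighbours. Of its 734 cells 728 (99.2%) were on lineage 8, which also held 37.2% of the other WT cells. Lineage 8 ran, by median score, through clusters 4, 9, 15, 13, 24, 12, 14, 23, 5, 2 and 20. Of these 11 clusters 8 were named ductal, 2 centroacinar_progenitor and only cluster 12 centroacinar. The median score was 38.3 in cluster 24, 48.8 in cluster 12 and 61.0 in cluster 14, on a scale from 0 to 103. Within cluster 12 the median was 42.0 at day 2, 47.8 at day 5, 50 at day 7 and 48.8 at day 9. The scores were computed on the same expression values, so the order is no independent measure.

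Along that order different genes changed between different clusters. Pooled MDM2 was at most 521 CPM in the 5 clusters before cluster 12, 1462 CPM in it and at least 1023 CPM in the 5 after it. Of the earlier clusters, 4, 9, 15 and 13 came almost wholly from day 2 (1025 of 1030, 800 of 805, 653 of 662 and 682 of 693 cells). MDM2 in the other WT cells was at 161 CPM at day 2 and at 431, 412 and 503 CPM at day 5, 7 and 9. For clusters 4, 9, 15 and 13 order on the lineage and day thus cannot be told apart. Cluster 24 had most of its cells at day 5 and 7 (82 and 274 of 382). Compared within the libraries of those days, MDM2 was called higher in cluster 12 than in cluster 24 (1.37). KRT4 was at 224 CPM in cluster 24, 235 CPM in cluster 12 and 10.2 CPM in cluster 14. AQP4 was at 121, 81.1 and 1.03 CPM in the same 3 clusters. MUC1 was at 948, 309 and 44.5 CPM. In cluster 12 KRT4 and AQP4 were thus closer to cluster 24, and MDM2 closer to cluster 14. The median depths of the 3 clusters were 17160.5, 15712 and 13397 UMIs. The authors removed doublets before deposit, and whether any that were missed have a part in this mixture was not tested.

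**Figure D5:**
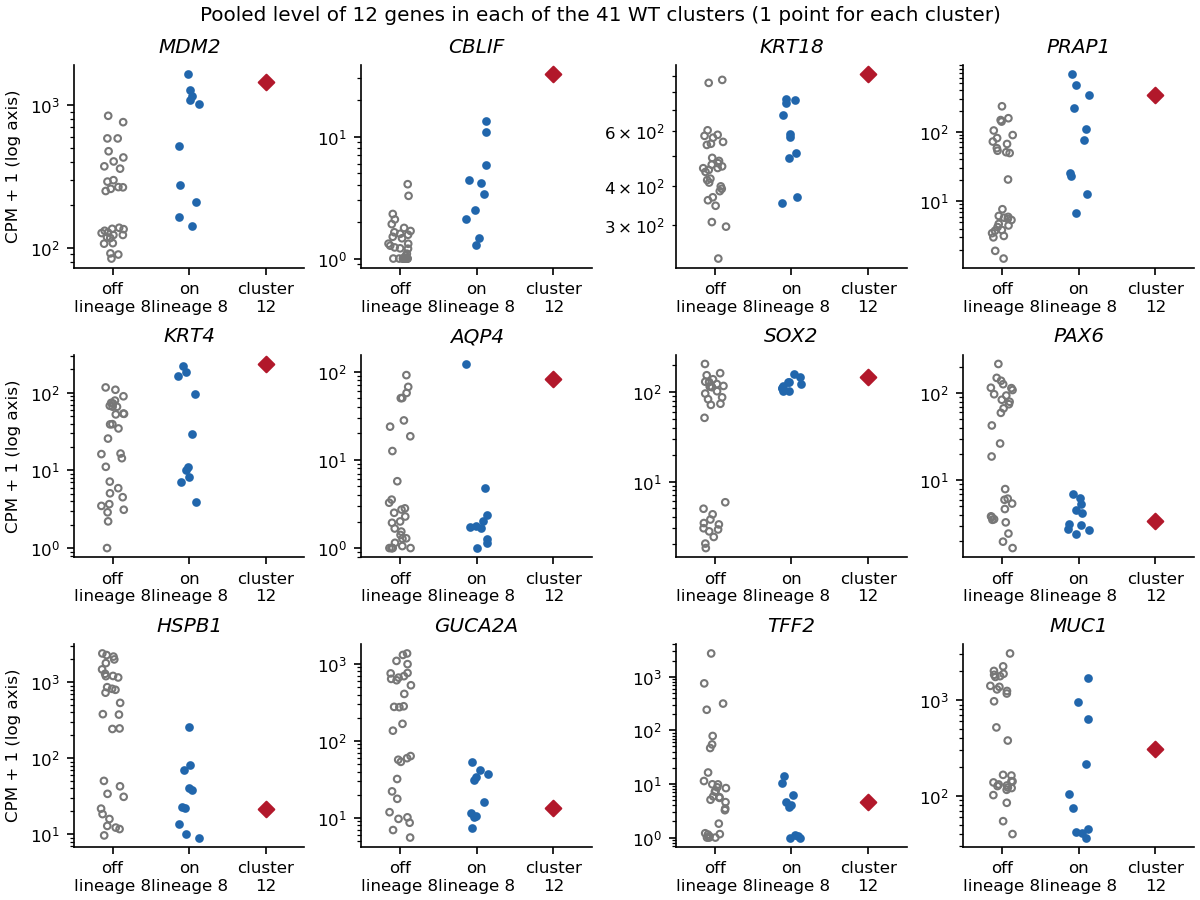
Each panel shows 1 gene and each point the pooled level of 1 of the 41 WT clusters, as CPM + 1 on a log axis: clusters off lineage 8 (open grey), other clusters on it (blue) and cluster 12 (red diamond). Cluster 12 is the highest point for CBLIF (31.3 CPM) and, by a small margin, KRT4 (235 against 224 CPM), is close to the highest for MDM2 (1462 CPM) and lies low for PAX6 (2.39 CPM) and HSPB1 (20.7 CPM).

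The cells of cluster 12 also differed among themselves along lineage 8. On each of the 3 days they were parted at that day's median score, a split chosen after the data had been seen, and 233 of 7757 genes (3%) were higher and 92 (1.19%) lower in the later cells. TAGLN was at 10.2, 22.3 and 32.7 CPM in the earlier and 183, 117 and 297 CPM in the later cells. KRT5 was at 29.1, 415 and 32.7 CPM in the earlier and 326, 1066 and 566 CPM in the later cells. FN1, CALD1, COL5A2 and COL18A1 were higher by 2.95, 2.55, 2.76 and 2.81. In the other direction WFDC2 was at 7173, 2176 and 21256 CPM in the earlier and 957, 926 and 5115 CPM in the later cells. AQP4 was lower by -1.92 and MUC1 by -1.32 in the later cells.

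Of the 20 genes that led the cluster as a whole, 4 were called between earlier and later cells and 16 were not. Over all 7757 genes 3% were called higher and 1.19% lower, so calls were more frequent among the leading genes. Between earlier and later cells MDM2 differed by 0.08 (SD 0.26 over the 3 days), CBLIF by 0.26 (SD 0.34), PRAP1 by 0.26 and SOX2 by 0.05. CDKN1A differed by 0.49, above 0 on each day and short of 2-fold. The 4 called genes were SPON2 and LOC101680580, higher, and AQP4 and LOC101688986, lower in the later cells. The earlier cells had median depths of 16392, 17041 and 14142 UMIs and the later cells 15434, 14808 and 14732.5 UMIs. The scores use the same genes, so this is a description of the order and not a test.

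Between day 5 and day 9, 98 of 7901 genes (1.24%) were at least 2-fold higher and 53 (0.671%) at least 2-fold lower in the cluster, each day being 1 library. Among the largest increases TFF3 went from 4.38 to 7.56 and 37.4 CPM, SPARC from 12.7 to 86.1 and 86.2 CPM, and CD74, a chaperone of antigen presentation, from 7.61 to 5.15 and 38.7 CPM. Of the 8 named increases, 6 were at least 2-fold in the other WT cells as well, where TFF3 went from 39.3 to 381 CPM. Among the largest decreases were those of CBLIF, S100A9 (30.9, 40.7 and 7.84 CPM), AQP3 (35.3, 92.8 and 9.22 CPM) and KRT4. Of the 8 named decreases, 2 were at least 2-fold in the other WT cells. How many of all genes changed that much in the other WT cells was not computed, so both counts are a description only. MDM2 (0.04) and LOC101675930 (0.13) had levels at day 9 close to those at day 5.

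In CF cells of the same 3 days the leading genes ranged from scarce to common. Their median depth was 21729.5 UMIs before each cell was thinned to 3000. A PRAP1 UMI was then found in 0.114% of CF cells (0.0457 to 0.234) against 44.8% of cluster 12 cells, an AQP4 UMI in 0.0162% against 16.5%, and a UMI of SOX2, not 1 of the 20 leading genes, in 0.0324% against 36.8%. MDM2 was found in 41.1% against 94.7%, LOC101672555 in 78.4% against 99.9% and LOC123390887 in 31.7% against 64.3%. DKK1 went the other way, with 16% of CF cells (15.1 to 16.9) against 11.6% of cluster 12 cells (9.37 to 14.2). For 15 of the 20 named genes cluster 12 had a higher pooled level than each of the 30 CF clusters. These genes were picked for being high in cluster 12, which favours this. The share over all genes was not computed, so the count is a description only. CF and WT cells were clustered apart, and genotype rests on 1 library a day.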

How the data were processed

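Ferret pancreatic ductal epithelium was profiled with 10x Genomics libraries. Per the labels and the methods, the authors aligned reads and counted UMIs with Cell Ranger 5.0.1 on ASM1176430v1.1. The deposited matrices hold whole UMI counts. In Seurat the authors dropped cells under 200 genes or above 20 percent mitochondrial UMIs, removed doublets with DoubletFinder (no doublet caller was rerun) and clustered each genotype separately without batch correction. Their deposited cell table gave clusters, classes, UMI counts and percent mitochondrial UMIs. Their deposited slingshot table gave a pseudotime score per cell and lineage. The deposited normalized table was not used, and 0 columns were left without a library. In 32868 of 32945 cells the matrix total was within 0.1% of the table.

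UMIs were summed per library over cluster 12 and over the compared cells and scaled to CPM (Python 3.11.15, numpy 2.4.6, pandas 2.3.3, scipy 1.17.1). Differences used a pseudocount of 1 CPM, a filter of 10 CPM on either side and equal weight for days with at least 50 cells of the cluster. Calls needed 2-fold and the same sign on every day. TMM factors (edgeR 4.0.16) and size factors (DESeq2 1.42.0), in R 4.3.3, were alternatives. With 1 library a day and cells clustered on these genes, no test was run. Intervals are exact Poisson or Clopper-Pearson at 95%. Retained WT cells summed to between 82961927 and 114585136 UMIs a library. The calling rule was also run on simulated UMI sums with folds set in advance, which checks the calculation and not the calls made here. Named genes were the 20 highest and 15 lowest called genes with at least 20 CPM on the higher side, 10 each way within the class, 8 each way by day, 5 each way for each of the 3 nearest clusters, marker genes, and up to 6 members of each of 58 gene lists. Exceptions are stated. Cluster 12 and all lists were chosen with earlier results of these data known. Values of some named genes are not reported here. No sequences are given.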

Additional observations from a re-analysis of the deposited data

Results flagged for a closer look

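MMP7, a matrix metalloproteinase, pointed in opposite directions on different days: its log2 difference between cluster 12 and the other WT cells was 1.31 at day 5 (376 against 151 CPM) and -1.79 at day 7 (46.0 against 162 CPM), with 0.39 at day 9. UBE2C, a mitotic ubiquitin enzyme, was at 1.77 against 23.3 CPM at day 7 (-3.13) and at 5.99 against 1.53 CPM at day 9 (1.47), the last from 13 UMIs in the cluster. With 1 library a day the difference between days was not tested.

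The 19 cells of day 2 entered none of the day-by-day comparisons, though the pooled levels include them. Of the 20 genes named as higher in cluster 12, 15 had a level in these cells above that of the other WT cells of day 2. For 12 the exact Poisson interval, which covers counting error only, lay above it. These cells were placed in the cluster by the same genes, so such likeness is built in and is no separate support. The share over all genes was not computed. MDM2 was at 993 CPM (878 to 1119) against 161 CPM, from 268 UMIs. LOC101672555 was at 2586 against 396 CPM, LOC123390887 at 348 against 32.6 CPM and LOC101688986 at 293 against 21.8 CPM. Lower in level but still above the rest were UPP1 (63.0 against 13.7 CPM), CUNH20orf204 (63.0 against 7.24 CPM), STK38L (59.3 against 12.5 CPM), PRAP1 (29.6 against 10.6 CPM), LOC101675930 (14.8 against 3.48 CPM, from 4 UMIs) and LOC101680580 (7.41 against 0.114 CPM, from 2 UMIs). KRT4, DKK1 and SPON2 were below the rest, SPON2 at 7.41 CPM (0.897 to 26.8) against 10.5 CPM. KRT4 was at 14.8 CPM (4.04 to 37.9) against 78.7 CPM, and DKK1 had no UMI (up to 13.7 CPM) against 14.3 CPM. CBLIF and AQP4 had none either among 269912 UMIs, against 0.805 and 0.201 CPM in the rest. The bound of 13.7 CPM lay below the level of AQP4 in the cluster on each later day (70.6 to 105 CPM) and below that of CBLIF at day 5 and 9 (70.6 and 18.4 CPM), though not at day 7 (9.65 CPM).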

How the results depend on the processing

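Against the other WT cells, the 95 higher genes became 63 with a pseudocount of 5 CPM, 49 with a filter at 50 CPM, 62 with equal weight for each cell, 61 with equal weight for each other cluster and 35 against SOX2-high clusters alone. The 287 lower genes became 89 with a filter at 50 CPM and 663 without a filter. Higher genes were 24.9% of the calls, 12.4% against SOX2-high clusters and 35.5% with the filter at 50 CPM. Leaving out a day gave 94 to 121 higher and 288 to 348 lower genes. Against the other centroacinar cells, 336 and 404 genes became 146 and 171 with a filter at 50 CPM and 510 and 687 without one. Without 1 day they were 290 to 387 and 343 to 447, and TMM factors gave 283 and 479 with a shift of -0.09 in the median. By day, 98 rising and 53 falling genes became 62 and 19 with a pseudocount of 5 CPM. The shares by day of 0.305, 4.77, 7.12 and 2.42% of all WT cells were 65.5, 33.5, 42.3 and 5.55% of the cells named centroacinar. Fewer genes enter under a higher filter; the cause of the other shifts was not tested. Of 766 recomputed values of 59 single-gene differences, 246 moved beyond counting error and 0 changed sign. FOXA2, outside those 59, went from -1.36 to 0.04 against SOX2-high clusters alone. Of 714 recomputed values of 51 list medians 84 moved by at least 0.2, and xenobiotic and NRF2 genes (0.068) and BMP genes (0.23) reversed, both against SOX2-high clusters alone. Splitting the cluster at the outer quartiles of the lineage score gave 504 higher and 205 lower genes in place of 233 and 92. No paired analysis was possible because the labels give no replicate numbers to use as a block, and every difference was already taken within a library. At the depth of the day 2 cells, no UMI allows up to 13.7 CPM.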
